A study of Mus musculus with 12 samples.

Results

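Transcripts of 5 genes of the NF-κB system, Rela, Nfkb1, Nfkb2, Nfkbia and Nfkbiz, were followed through the livers of mice with and without experimental colitis. The genes were picked by symbol, as the rows of the count table whose Ensembl identifiers carry these names in GENCODE vM1, which gave 5 of the 51609 rows. All 5 passed the filter on low counts, which kept 17652 genes. The mice had the C57BL/6 background and fell into 4 groups of 3 livers each, sequenced as 12 libraries. Wild-type mice either stayed on water or drank 2% dextran sulfate sodium (DSS), a chemical that injures the colon lining, for 6 days, and mice labelled RelaΔhepStat3Δhep received the same treatments. In RelaΔhepStat3Δhep mice, Cre recombinase driven by the albumin promoter removes both Rela and Stat3 in hepatocytes, so that Kupffer cells, endothelium, stellate cells and blood cells of the same liver keep both genes. The wild-type mice are, per the study's methods, littermates that carry floxed alleles without Cre, and the animals were 5 to 7 weeks old. The comparisons ask how the liver's NF-κB genes responded to colitis and whether that response differed where hepatocytes lack Rela and Stat3.

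NF-κB is a family of dimeric transcription factors that waits in the cytoplasm until microbial products, TNF or interleukin-1 free it. Rela encodes p65, the subunit with a transactivation domain in the canonical pathway, and Nfkb1 encodes p105, which is processed to p50, the usual partner of p65. Nfkb2 encodes p100, which is processed to p52 in the non-canonical pathway and in its full-length form also retains dimers in the cytoplasm. Nfkbia encodes IκBα, which binds NF-κB dimers, keeps them inactive and is degraded on stimulation. Nfkbiz encodes IκBζ, an atypical nuclear member of the family that works as a cofactor on secondary response genes. Several of these genes are themselves known targets of NF-κB, and in the liver both hepatocytes and Kupffer cells, the resident macrophages, use the pathway.

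The promoters are shown for the genes whose values contrast below, Nfkb2, Nfkbia and Rela, to set the letters of the promoter beside the response of each transcript. They are the 250 bases before the transcription start on the gene's own strand, written 5′ to 3′, from the RefSeq promoter table of build GRCm38.p6, which held windows for 3 of the 5 genes. Nfkb1 and Nfkbiz are named only. Nfkb2 has 3 start sites in that table and the first is printed. Capitals mark matches to the 10-letter κB consensus on either strand. The Rela window is chr19:5637291-5637540 (plus strand), the Nfkb2 window chr19:46304487-46304736 (plus strand) and the Nfkbia window chr12:55492648-55492897 (minus strand).
Rela: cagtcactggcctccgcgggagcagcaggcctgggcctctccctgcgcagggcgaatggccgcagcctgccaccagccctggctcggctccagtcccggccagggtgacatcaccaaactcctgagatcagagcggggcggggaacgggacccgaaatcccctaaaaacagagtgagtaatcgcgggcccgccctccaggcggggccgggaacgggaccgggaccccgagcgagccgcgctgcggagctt
Nfkb2: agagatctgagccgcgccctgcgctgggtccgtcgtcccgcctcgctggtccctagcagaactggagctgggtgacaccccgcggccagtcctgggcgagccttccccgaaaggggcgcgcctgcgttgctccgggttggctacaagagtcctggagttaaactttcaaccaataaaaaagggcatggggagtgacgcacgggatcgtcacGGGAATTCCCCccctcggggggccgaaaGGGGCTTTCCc
Nfkbia: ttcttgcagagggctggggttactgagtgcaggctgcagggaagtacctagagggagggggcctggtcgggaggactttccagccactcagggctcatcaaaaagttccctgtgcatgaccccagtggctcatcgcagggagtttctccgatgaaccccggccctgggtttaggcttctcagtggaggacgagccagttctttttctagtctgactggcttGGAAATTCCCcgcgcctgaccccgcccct
The Rela window held no κB match, which says only that these letters are not in it. The Nfkb2 window held a palindromic match at -39 to -30 relative to the start, read on both strands, another that overlaps it at -38 to -29 on the opposite strand, and a further match at -11 to -2. The other start sites of Nfkb2 had matches at -236 to -227 and 10 to 19 (the second site) and at -225 to -216 (the third site). The Nfkbia window held 1 match, at -29 to -20 on the opposite strand. Of 32817 promoter windows of 300 bases (250 before and 50 after the start), 8.46% held a κB match, and 7.25% held one within the 250 bases before the start. A STAT-type motif, TTCNNNGAA, which reads the same on both strands, occurred once in these windows, at -148 to -140 of the first Nfkb2 start, and in 8.29% of all windows. A match is a description of the letters and not of binding.

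Total estimated counts ran from 65879529 to 82850098 per library. These totals exceed the number of fragments per sample that the methods of the study give, so that the scale of the counts is uncertain. Levels are given as CPM, estimated counts per 1000000 of the TMM-scaled library total, in the order of replicates 1, 2 and 3. The 6 hepatocyte markers listed summed to between 81180 and 166900 CPM in all libraries. Sex-linked transcripts and cell type markers are given here because the results below touch them. Xist, the transcript of the inactive X chromosome in female cells, stood at 1283, 903 and 920 CPM in the DSS-treated RelaΔhepStat3Δhep livers and at 29.0 CPM or less in the untreated ones, while 4 Y-linked transcripts summed to at most 0.12 CPM in the former and to 175 to 215 CPM in the latter. The DSS-treated wild-type livers held at most 11.9 CPM of Xist and 205 to 228 CPM of the Y-linked transcripts. Sex therefore cannot be told apart from DSS in the response of RelaΔhepStat3Δhep mice, from genotype in the comparison after DSS, or from either in the difference between the DSS responses. Replicate 3 of untreated wild-type livers held 1143 CPM of Xist together with 30.1 CPM of the Y-linked transcripts. This liver enters the wild-type DSS response and the untreated genotype comparison, against livers with 29.0 CPM of Xist or less. These transcripts were thus uneven in both comparisons too, and the part of sex was not tested. The 7 Kupffer cell markers measured summed to 238 to 498 CPM in untreated wild-type livers, 384 to 849 CPM in DSS-treated wild-type livers, 286 to 317 CPM in untreated RelaΔhepStat3Δhep livers and 579 to 936 CPM in DSS-treated ones, and none of the 7 was at 0 in a group. In bulk liver, more cells of a type and more RNA per cell cannot be told apart.

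Rela (ENSMUSG00000024927) lies on the plus strand at chr19:5637483-5648130 of mm9, with 2716 bases of exon in 11 blocks. Its level was 45.5, 54.5 and 41.2 CPM in untreated wild-type livers and 41.1, 39.8 and 55.5 CPM in DSS-treated wild-type livers. It was 42.8, 43.8 and 51.4 CPM in untreated and 39.5, 62.3 and 46.4 CPM in DSS-treated livers labelled RelaΔhepStat3Δhep. All 4 groups overlapped, with means of 47.1 ± 6.79, 45.5 ± 8.71, 46.0 ± 4.69 and 49.4 ± 11.7 CPM (SD, n = 3 each), and no neighbouring pair in the order of the means differed by more than the larger SD of the pair. The log2 difference between genotypes was -0.03 in untreated livers (95% interval -0.44 to 0.37, adjusted p = 0.961) and 0.12 after DSS (-0.28 to 0.52, adjusted p = 0.827). The deletion named in the labels was thus not visible in the level of Rela, whose counts are summed over the whole gene and over all cell types and do not show which exons were read. The study characterized the strain by genotyping and by western blots for RelA and Stat3 protein, which these RNA counts do not address. Stat3, the other deleted gene, was at 45.7, 138 and 87.6 CPM in untreated wild-type livers and at 45.9, 46.7 and 49.7 CPM in untreated RelaΔhepStat3Δhep livers, and at 63.2, 330 and 307 CPM against 43.0, 58.1 and 74.8 CPM after DSS. The groups overlapped in both comparisons and neither difference in Stat3 passed the test (adjusted p = 0.542 and 0.175). The log2 difference in Stat3 was -0.93 in untreated livers (-2.14 to 0.29) and -1.99 after DSS (-3.24 to -0.74, unadjusted p = 0.00517 in edgeR).

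Rela also did not pass the test in either DSS comparison. Its log2 fold change was -0.05 in wild-type mice (-0.45 to 0.35, adjusted p = 0.942) and 0.10 in RelaΔhepStat3Δhep mice (-0.30 to 0.50, adjusted p = 0.781). 

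**Figure D1:**
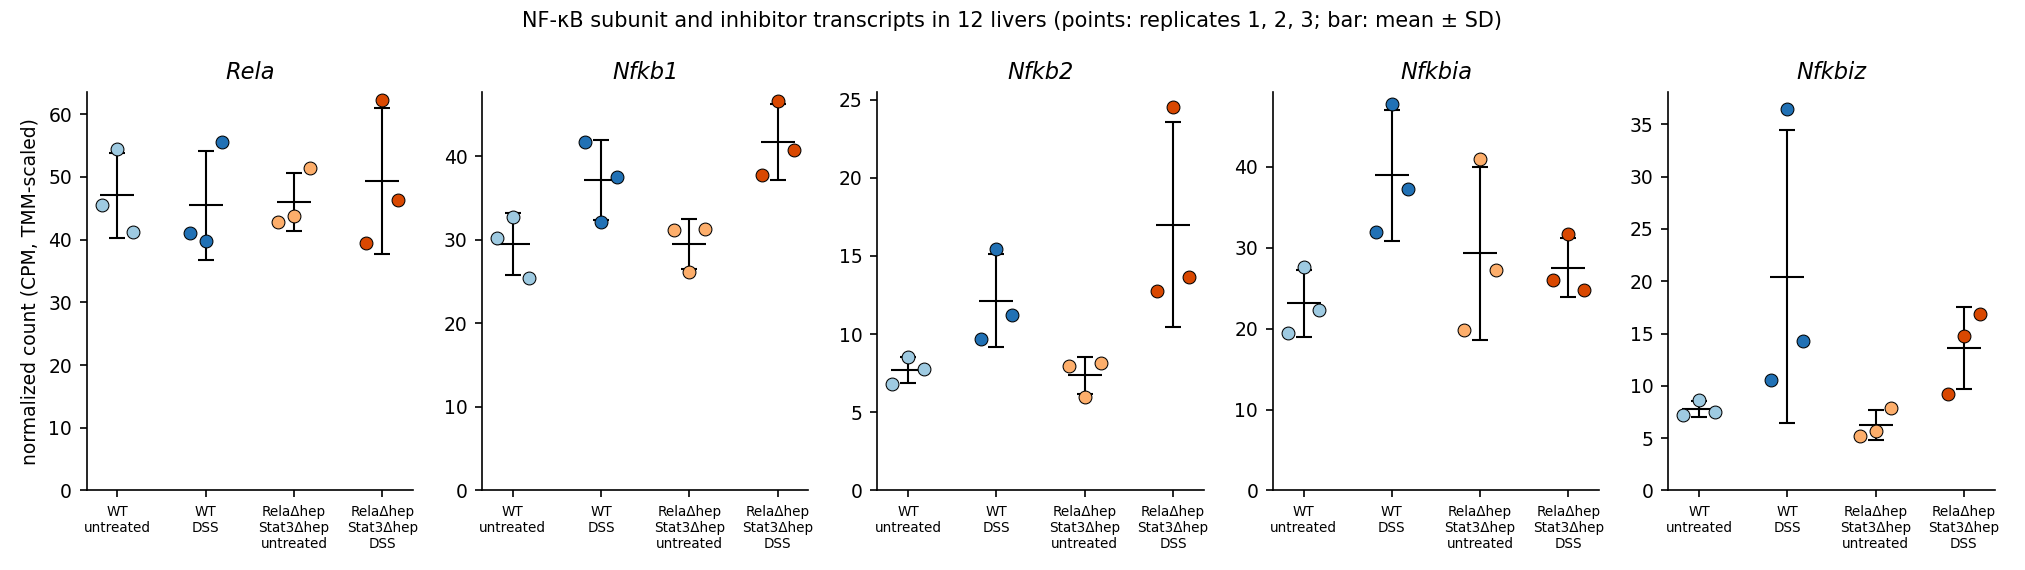
Level of each of the 5 transcripts (y axis, CPM scaled by TMM, from 0) in the 12 livers by group (x axis). Points are replicates 1, 2 and 3 from left to right and bars are the mean ± SD. Rela overlaps in all groups, Nfkb2 and Nfkbiz are higher in every DSS-treated liver than in the untreated livers of the same genotype, and Nfkbia averages 38.9 CPM after DSS against 23.1 CPM untreated in wild-type livers and 27.5 against 29.3 CPM in RelaΔhepStat3Δhep livers.

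Nfkb1 (ENSMUSG00000028163; minus strand, chr3:135247619-135354511; 4794 bases of exon) was at 30.3, 32.7 and 25.5 CPM in untreated wild-type livers and at 41.7, 32.2 and 37.6 CPM after DSS. The wild-type groups overlapped, through the second DSS-treated liver. In RelaΔhepStat3Δhep mice Nfkb1 was at 31.2, 26.1 and 31.3 CPM untreated and at 37.8, 46.7 and 40.7 CPM after DSS, with every treated liver above every untreated one. The log2 fold change was 0.33 (SE 0.14, adjusted p = 0.309) in wild-type and 0.50 (SE 0.14, adjusted p = 0.0555) in RelaΔhepStat3Δhep mice, just outside the threshold of 0.05. In the order of the means, the untreated groups of both genotypes (29.5 ± 3.71 and 29.6 ± 2.97 CPM) did not differ beyond their spread, and neither did the DSS-treated groups (37.1 ± 4.79 and 41.7 ± 4.51 CPM).

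Nfkb2 (ENSMUSG00000025225; plus strand, chr19:46379227-46386580; 3289 bases of exon) rose after DSS in RelaΔhepStat3Δhep livers, and was the 1 gene of the 5 that passed the test in any of the 5 comparisons. Its level was 7.96, 5.97 and 8.14 CPM untreated and 12.8, 24.6 and 13.7 CPM after DSS in these mice. The groups were apart, and the second treated liver was highest. The rise was 2.31-fold, or 1.21 on the log2 scale (SE 0.25, 95% interval 0.66 to 1.76, adjusted p = 0.0157). In wild-type livers Nfkb2 was at 6.84, 8.53 and 7.78 CPM untreated and at 9.71, 15.5 and 11.2 CPM after DSS, again without overlap. That difference, 0.65 on the log2 scale (SE 0.25, adjusted p = 0.248), did not pass, and it was 0.44 without the second treated liver. The call in RelaΔhepStat3Δhep mice was lost without replicate 2 of their untreated livers, the lowest of the 12 libraries, where the log2 fold change was 1.08 (adjusted p = 0.0812). Nfkb2 overlaps Psd on the opposite strand, and whether counting used strand is not given in the sources used here, but Psd was at 0.38 to 0.97 CPM in all libraries.

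The 5 genes can be read against the 17652 genes tested. In RelaΔhepStat3Δhep mice 1 of 5 was called after DSS by edgeR, where 7.02% of all genes were called; 3 of 5 had an unadjusted p under 0.05 (4261 of all genes did), and DESeq2 and limma-voom called 3 each. In wild-type mice 0 of 5 was called by edgeR, where 0.685% of all genes were; 4 of 5 had an unadjusted p under 0.05 (2567 of all genes did), and 1 was called by DESeq2 and 0 by limma-voom. The percentages are those of edgeR, and none is given for DESeq2 or limma-voom, so the counts by these tools have no share beside them. The median log2 fold change of the 5 was 0.65 in wild-type and 0.50 in RelaΔhepStat3Δhep mice, against 0.02 and -0.01 over all genes.

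Nfkbia (ENSMUSG00000021025; minus strand, chr12:56590398-56593634; 1577 bases of exon) was, of the 5, the gene whose DSS responses in both genotypes lay furthest apart. Its level in wild-type livers was 19.5, 27.6 and 22.3 CPM untreated and 31.9, 47.8 and 37.2 CPM after DSS, so that all treated livers lay above the untreated ones. In RelaΔhepStat3Δhep livers it was 19.9, 40.9 and 27.2 CPM untreated and 26.0, 31.7 and 24.8 CPM after DSS, and the treated livers lay within the range of the untreated ones. The log2 fold change was 0.75 in wild-type mice (SE 0.24, 95% interval 0.23 to 1.27, adjusted p = 0.163). It was -0.09 in RelaΔhepStat3Δhep mice (SE 0.24, -0.61 to 0.42, adjusted p = 0.854). Neither passed the test. The sign in RelaΔhepStat3Δhep mice rests on the second untreated liver, without which it was 0.23 (adjusted p = 0.619). The difference between the responses, tested as an interaction, was -0.85 on the log2 scale (SE 0.34, -1.58 to -0.11), with an unadjusted p of 0.0267 in edgeR and an adjusted p of 0.247, and so did not pass over all genes. Without the second untreated RelaΔhepStat3Δhep liver it was -0.52 (adjusted p = 0.449). After DSS, the level in every RelaΔhepStat3Δhep liver was below that in every wild-type liver, although the highest of the former (31.7 CPM) and the lowest of the latter (31.9 CPM) nearly met. The log2 difference there was -0.50 (SE 0.24, adjusted p = 0.364) and -0.33 without the second treated wild-type liver, and 7.98% of all genes were likewise lower without overlap. Genotype and sex cannot be told apart in this comparison, as the sex-linked transcripts above show.

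Nfkbiz (ENSMUSG00000035356; minus strand, chr16:55811488-55839012; 5018 bases of exon) varied most among treated wild-type livers. In wild-type mice it went from 7.22, 8.68 and 7.50 CPM on water to 10.6, 36.5 and 14.3 CPM on DSS. It was at 5.18, 5.71 and 7.92 CPM in untreated and at 9.20, 14.8 and 16.8 CPM in DSS-treated RelaΔhepStat3Δhep livers. Treated and untreated livers were apart in both genotypes, and the second treated wild-type liver stood alone at the top. The log2 fold change was 1.39 in wild-type (SE 0.40, adjusted p = 0.135) and 1.12 in RelaΔhepStat3Δhep mice (SE 0.40, adjusted p = 0.115), neither past the threshold. Without the second treated wild-type liver the wild-type value was 0.67 (adjusted p = 0.296), and without the first it was 1.70 and passed (adjusted p = 0.0456). The same second liver held 104 CPM of the summed monocyte and neutrophil markers, against 10.2 and 21.9 CPM in the other two, and 849 CPM of the Kupffer cell markers, and their part in the level of Nfkbiz was not tested.

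**Figure D2:**
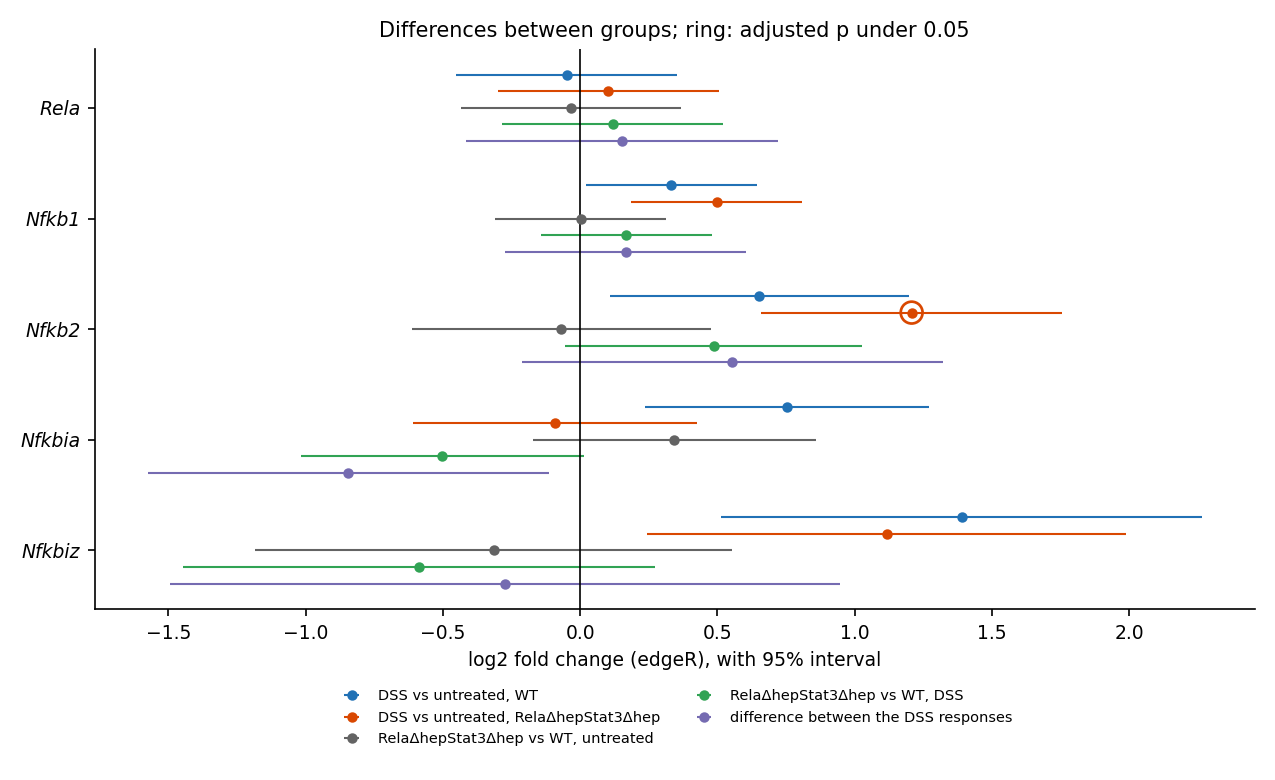
Log2 fold change of each gene (x axis) with its 95% interval in the 5 comparisons (colours), from the edgeR fit of all 12 libraries. The ring marks the value with an adjusted p under 0.05, Nfkb2 after DSS in RelaΔhepStat3Δhep mice, and the interval of Nfkbia lies below 0 for the difference between the DSS responses (-1.58 to -0.11), a difference of -0.85 that is -0.52 without the second untreated RelaΔhepStat3Δhep liver.

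Groups without overlap were frequent in these data. After DSS in wild-type mice Nfkb2, Nfkbia and Nfkbiz lay wholly above the untreated livers, as did 9.49% of all genes. In RelaΔhepStat3Δhep mice Nfkb1, Nfkb2 and Nfkbiz did, as did 17.8% of all genes. For each of these the exact permutation test, two-sided, gave p = 0.1, the smallest that 3 livers against 3 allow.

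In untreated livers 0 of 5 genes passed the edgeR test between genotypes, where 0.0623% of all genes did; 0 had an unadjusted p under 0.05, and DESeq2 and limma-voom called 0. Nfkb1 was the closest to no difference (0.00 on the log2 scale, 95% interval -0.31 to 0.31) and Rela followed (-0.03, -0.44 to 0.37). Nfkb2 was at -0.07 (-0.61 to 0.48), Nfkbia at 0.34 (-0.17 to 0.86, and 0.024 without the second untreated RelaΔhepStat3Δhep liver) and Nfkbiz, with the widest interval of the 5, at -0.31 (-1.18 to 0.55). After DSS, where genotype and sex coincide, again 0 of 5 was called by edgeR, DESeq2 and limma-voom and 0 had an unadjusted p under 0.05, where 0.334% of all genes were called. Nfkb2 was 0.49 higher on the log2 scale in RelaΔhepStat3Δhep than in wild-type livers (-0.05 to 1.03, adjusted p = 0.406), and 0.13 higher without the second treated RelaΔhepStat3Δhep liver. Nfkbiz was at -0.59 (-1.45 to 0.27, adjusted p = 0.537), a direction that rests on the second treated wild-type liver, without which it was 0.13. For the difference between the DSS responses, 0.408% of all genes were called and none of the 5 was by these 3 tools. The rise of Nfkb2 in RelaΔhepStat3Δhep mice was therefore not shown to differ from its wild-type value (difference 0.55, -0.21 to 1.32, adjusted p = 0.455), nor was the response of Nfkb1 (0.17, -0.27 to 0.61, adjusted p = 0.720) or Nfkbiz (-0.27, -1.49 to 0.95, adjusted p = 0.844). Without the second treated RelaΔhepStat3Δhep liver the difference for Nfkb2 was 0.20, and without the second treated wild-type liver that for Nfkbiz turned to 0.43, as it did by limma-voom (0.34). These comparisons share groups, so that their values are not independent.

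Between genes, levels were compared as CPM per kilobase of exon, with exon lengths from GENCODE vM1, which may differ from the annotation the counts were made with. In untreated wild-type livers Rela (17.3 ± 2.50) and Nfkbia (14.7 ± 2.61, SD, n = 3) were the most abundant of the 5 on this scale, Nfkb1 was at 6.15 ± 0.774, and Nfkb2 (2.35 ± 0.257) and Nfkbiz (1.55 ± 0.154) were the lowest. After DSS in wild-type mice Nfkbia reached 24.7 ± 5.13 per kilobase, above Rela at 16.8 ± 3.21. The ratio of the inhibitor to its target subunit, Nfkbia to Rela per kilobase, was 0.85 ± 0.10 before and 1.52 ± 0.483 after DSS in wild-type livers, and 1.11 ± 0.439 and 0.977 ± 0.138 in RelaΔhepStat3Δhep livers. The ratio of the p100 to the p105 transcript, Nfkb2 to Nfkb1, was 0.385 ± 0.0585, 0.492 ± 0.187, 0.361 ± 0.0244 and 0.583 ± 0.160 in the same order. In DSS-treated livers the second replicate of each genotype had the highest ratio of Nfkb2 to Nfkb1. The fall of Nfkbia to Rela between the RelaΔhepStat3Δhep means rested on the second untreated liver, at 1.61 against 0.799 and 0.911 in the others. These ratios were chosen after the values were seen and carry no test.

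**Figure D3:**
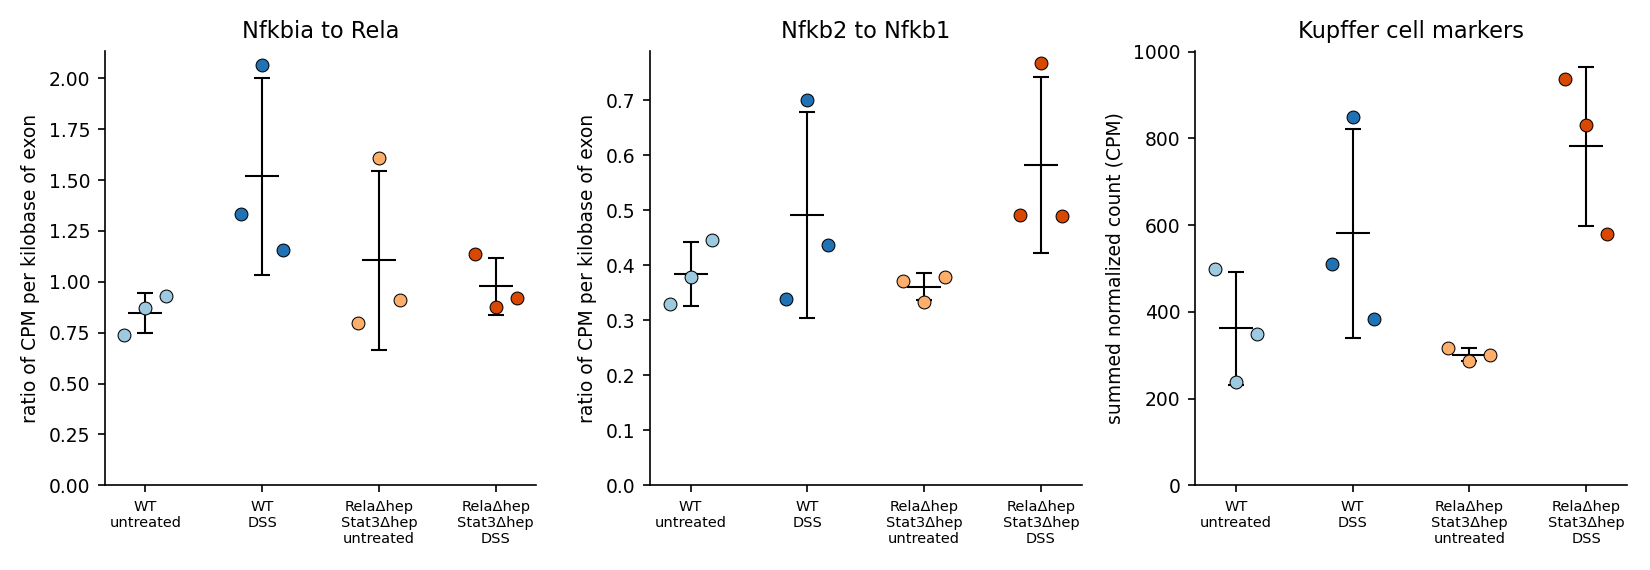
Ratios of transcripts per kilobase of exon, Nfkbia to Rela and Nfkb2 to Nfkb1, and the summed CPM of 7 Kupffer cell markers, by group (points: replicates 1 to 3; bars: mean ± SD). The ratio of Nfkbia to Rela averages 1.52 in DSS-treated wild-type livers and 0.977 in DSS-treated RelaΔhepStat3Δhep livers, and the marker sum is 579 or more in the latter group.

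The other subunits and IκB family genes were Rel, Relb, Bcl3, Nfkbib, Nfkbie and Nfkbid, all of them tested. In RelaΔhepStat3Δhep mice Relb and Rel rose after DSS, and in wild-type mice 0 of 6 passed the test. Of all genes edgeR called 7.02% in RelaΔhepStat3Δhep and 0.685% in wild-type mice. The difference between the responses was called for none of the 6. It was 0.58 on the log2 scale for Relb and 0.17 for Rel (edgeR adjusted p = 0.540 and 0.674). Relb, which encodes the partner of p52 in the non-canonical pathway, went from 1.61, 1.01 and 1.43 CPM to 4.81, 6.63 and 2.83 CPM, a log2 fold change of 1.82 (SE 0.32, adjusted p = 0.00824). In wild-type livers Relb was at 1.00, 1.86 and 1.42 CPM untreated and 3.38, 3.31 and 3.40 CPM after DSS, a log2 fold change of 1.24 that did not pass (adjusted p = 0.0938). Rel, which encodes c-Rel, a subunit prominent in blood cells, went from 16.5, 14.0 and 17.0 CPM to 21.3, 24.4 and 24.4 CPM in RelaΔhepStat3Δhep mice (0.56, adjusted p = 0.0257), and its wild-type value was 0.39 (adjusted p = 0.192). Nfkbie, which encodes the inhibitor IκBε, had log2 fold changes of 0.73 and 0.77 in wild-type and RelaΔhepStat3Δhep mice, and neither passed (adjusted p = 0.228 and 0.101). Nfkbib, which encodes IκBβ, had -0.01 and 0.46 (adjusted p = 0.984 and 0.122). Bcl3, an atypical nuclear IκB, had 0.69 and 0.17 (adjusted p = 0.535 and 0.858), and Nfkbid, which encodes IκBNS, was below 1 CPM in all libraries.

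A list of 73 further pathway genes, these 6 included, had 69 rows in the table, of which 65 were tested. In RelaΔhepStat3Δhep mice 12 of 65 rose after DSS and 1 fell, so that 20% were called, against 7.02% of all genes tested. Values above 0 were found for 50 of 65 (76.9%, against 49.4% of all genes), and the median was 0.56 on the log2 scale. An unadjusted p under 0.05 was reached by 32 of 65 (49.2%, against 24.1%). In wild-type mice 2 of 65 rose and none fell (3.08%, against 0.685% of all genes). There 52 of 65 were above 0 (80%, against 52.2%), with a median of 0.39, and 26 of 65 had an unadjusted p under 0.05 (40%, against 14.5%). For the difference between the DSS responses 1 of 65 was called by edgeR (1.54%, against 0.408% of all genes). An unadjusted p under 0.05 was reached for this difference by 12 of 65 (18.5%, against 16.3%). The lists were drawn up with earlier results of these data known and are not independent evidence of a direction. The count of 13 calls in RelaΔhepStat3Δhep mice was 1 without replicate 2 of their untreated livers and 6 or 8 without any other of their 6 libraries. The 2 calls in wild-type mice became 0 without replicate 2 of the untreated livers and 8 without replicate 1 of the DSS-treated ones. DESeq2 called 16 in each genotype, and a fit of only the groups compared called 0 in wild-type and 14 in RelaΔhepStat3Δhep mice, so that the gap between 2 and 13 calls depends on the fit. The shares of all genes that these fits called are not given here, so their counts cannot be read against a background.

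Upstream of the 5 genes, the ligands Il1a and Il1b, which encode interleukin-1, were among those that rose in RelaΔhepStat3Δhep mice (log2 fold changes of 1.06, adjusted p = 0.0444, and 1.54, adjusted p = 0.0179), 2 of the 6 ligands tested. The calls in these lists stand beside 7.02% of all genes called in RelaΔhepStat3Δhep and 0.685% in wild-type mice. Among 8 receptors Tnfrsf11a, the receptor of RANKL, rose there (1.09, adjusted p = 0.0134). Il1rap, the accessory chain of the interleukin-1 receptor, fell there by 0.76 on the log2 scale (adjusted p = 0.0310). The wild-type value of Tnfrsf11a was close to this, at 1.03, just outside the threshold (edgeR adjusted p = 0.0535). Il1a, Il1b and Il1rap had wild-type values of 0.10, 0.42 and -0.19, and none passed (edgeR adjusted p = 0.921, 0.608 and 0.708). In wild-type mice the receptor Tnfrsf1b, the second TNF receptor, rose from 28.0, 24.5 and 22.8 CPM to 42.0, 50.7 and 45.2 CPM (0.87, adjusted p = 0.0196). Its level in RelaΔhepStat3Δhep mice was 37.0, 50.3 and 39.4 CPM untreated and 31.9, 39.4 and 32.3 CPM after DSS. The difference between the responses passed the test (interaction -1.16, edgeR adjusted p = 0.0431), a call that held in 8 of 19 alternatives. Sex cannot be told apart from genotype or DSS in it. Of 10 kinases Tbk1, an IKK-related kinase, rose in RelaΔhepStat3Δhep mice (0.51, adjusted p = 0.0425), and of 9 adaptors and ubiquitin ligases Birc3, which encodes cIAP2, did (0.88, adjusted p = 0.00853). Of 8 brakes on the pathway Tnip1, a partner of A20, rose there (0.84, adjusted p = 0.0108). Wild-type values of Tbk1, Birc3 and Tnip1 were 0.33, 0.56 and 0.31, and none passed (edgeR adjusted p = 0.296, 0.1195 and 0.397). The largest wild-type values were Map3k8 among kinases (1.05), Tnfaip3 among brakes (1.46) and Il1r1 among receptors (1.98). None passed (edgeR adjusted p = 0.0643, 0.129 and 0.195), and each was highest in the second treated liver. In wild-type mice 5 kinases, 1 ubiquitin ligase, 3 brakes, 0 ligands and 5 receptors had an unadjusted p under 0.05 in edgeR. In RelaΔhepStat3Δhep mice 4, 2, 6, 3 and 3 did. Of all genes 14.5% and 24.1% did.

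Of 18 target genes 4 rose in RelaΔhepStat3Δhep mice and 1 in wild-type mice, where edgeR called 7.02% and 0.685% of all genes. Values above 0 were found for 15 of the 18 in RelaΔhepStat3Δhep mice (median 1.07) and for 17 in wild-type mice (median 1.16). None of the 18 was called for the difference between the responses. Ccl2, the chemokine that draws monocytes, rose in both, from 0.51, 0.37 and 1.06 CPM to 7.18, 3.52 and 3.08 CPM in wild-type livers (2.83 on the log2 scale, adjusted p = 0.0214) and from 0.97, 0.52 and 0.74 CPM to 12.4, 7.83 and 4.72 CPM in RelaΔhepStat3Δhep livers (3.48, adjusted p = 0.00288). The chemokine gene Cxcl10 rose in RelaΔhepStat3Δhep livers (2.97, adjusted p = 0.0334), as did Irf1, an interferon-responsive transcription factor (1.35, adjusted p = 0.0469). The value of Irf1 was 0.87 without the third DSS-treated liver (adjusted p = 0.121). Wild-type values of Cxcl10 and Irf1 were 1.315 and 0.248, and neither passed (edgeR adjusted p = 0.401 and 0.811). Il6, which encodes interleukin-6, had 0 counts in all 3 untreated RelaΔhepStat3Δhep livers and 30, 27 and 10 counts after DSS (adjusted p = 0.0262), at least 22.1-fold higher with the untreated group set to 3 counts over its 3 livers, a bound that holds only on the scale of the deposited counts. In wild-type livers Il6 had 0, 6 and 0 counts untreated and 31, 29 and 15 counts after DSS, which did not pass (adjusted p = 0.173), and the DSS-treated groups of both genotypes overlapped (adjusted p = 0.921). Neither was the difference between the responses called (adjusted p = 0.377). The median over the 65 genes was the same, 0.56, with such genes at that floor. Beside these counts, 6 of the 7 Kupffer cell markers also passed the test as higher after DSS in RelaΔhepStat3Δhep mice (median log2 value 1.16). None of the 7 passed in wild-type mice, although 6 were above 0 (median 0.62) and 5 had an unadjusted p under 0.05, and the difference between the responses was called for none of the 7 (1 had an unadjusted p under 0.05). Beside them, 1 of 5 monocyte and neutrophil markers, 1 of 7 lymphocyte markers and 1 of 4 stellate cell markers were called higher in RelaΔhepStat3Δhep mice and none in wild-type mice. The monocyte and neutrophil markers had medians of 2.95 in RelaΔhepStat3Δhep and 2.89 in wild-type mice on the log2 scale, all 5 above 0 in both, the lymphocyte markers 1.17 and -0.98, and the stellate cell markers 0.64 and -0.38, and the difference between the responses was called for none of them. The stellate cell marker was Des, the gene of desmin (1.98 on the log2 scale, adjusted p = 0.0179), and of 6 hepatocyte markers Cyp2e1, a cytochrome P450, was lower there (-2.10, adjusted p = 0.0193). No endothelial or cholangiocyte marker, 4 of each, passed the test. The part of these markers in the pathway values was not tested.

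Several of these calls were close to the threshold. Of 20 alternative settings, in which the fit, the filter or the libraries were changed, the call in RelaΔhepStat3Δhep mice held in 18 for Relb, Birc3, Tnip1 and Tnfrsf11a, in 19 for Ccl2, in 15 for Il1b and Il1rap, in 13 for Rel and in 11 for Cxcl10. It held in 9 for Il1a, in 7 for Tbk1, in 7 for Irf1 and, for Il6, in 12 of 18. These settings include fits without a wild-type library, which is not in the groups compared, so the tallies overstate stability. The calls of Rel, Tbk1 and Cxcl10 were lost each time a single RelaΔhepStat3Δhep library was left out. For Rel the edgeR adjusted p was then 0.0529 to 0.119. The wild-type calls held in 16 of 20 for Tnfrsf1b and in 17 for Ccl2.

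**Figure D4:**
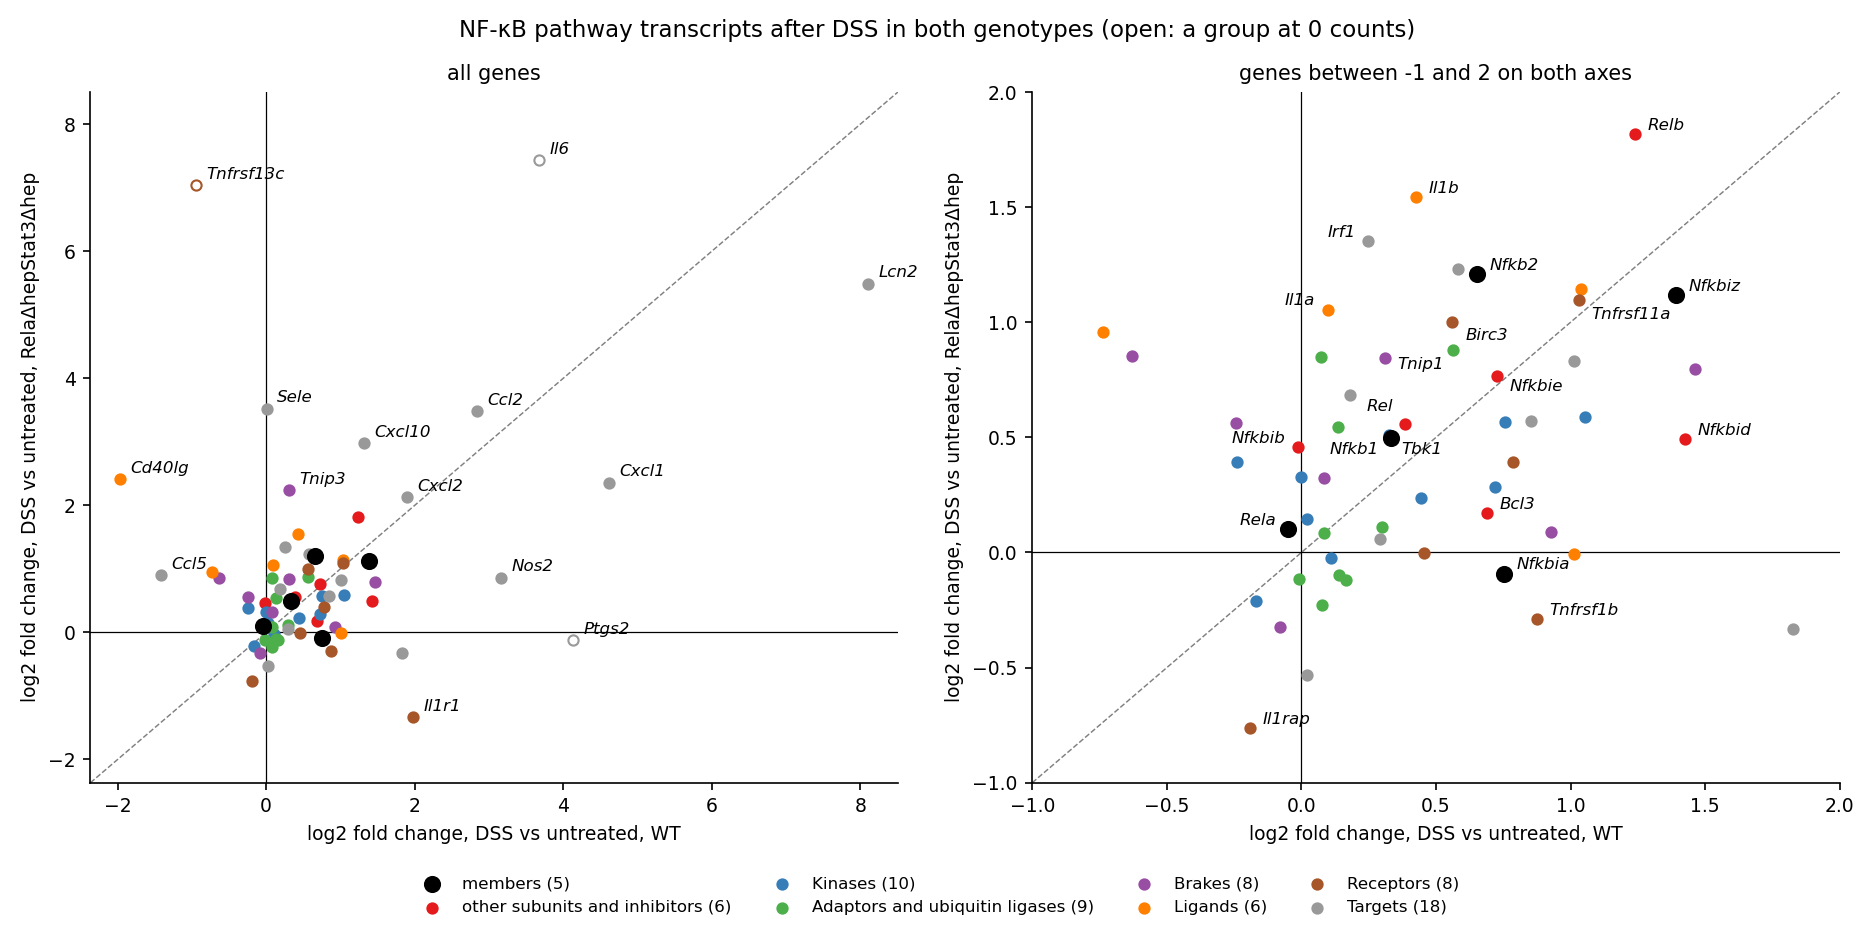
Log2 fold change after DSS in wild-type mice (x axis) against that in RelaΔhepStat3Δhep mice (y axis) for the 5 genes (black) and 65 other pathway genes (colours by list; open circles have a group at 0 counts, where the plotted value depends on the fit's prior count). The dashed line marks equal values, the right panel enlarges the centre, and Nfkb2 (0.65, 1.21) lies above the line while Nfkbia (0.75, -0.09) lies below it.

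In the genotype comparisons no pathway gene passed the test, where 0.0623% of all genes did in untreated livers and 0.334% after DSS. An unadjusted p under 0.05 was found for 7 of 65 in untreated livers (10.8%, against 11.7% of all genes) and for 19 of 65 after DSS (29.2%, against 14.3%). DESeq2 called 2 and 4 of them, and limma-voom 1 and 0, again with no share of all genes given. The medians were 0.00 and 0.17 on the log2 scale.

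Among the 5 genes, levels over the 12 libraries went together most for Nfkb1 with Nfkb2 (Pearson r = 0.785 on log2 CPM) and Nfkb2 with Nfkbiz (r = 0.748), and least for Rela with Nfkbiz (r = 0.0690) and Rela with Nfkbia (r = 0.0765). After the group means were subtracted, r was 0.237, 0.612, 0.128 and 0.227 for these pairs. Without the second treated wild-type liver the values over 11 libraries were 0.866, 0.799, 0.494 and 0.344, and 0.630, 0.445, 0.732 and 0.403 after the group means were subtracted, so that the order of the pairs depended on this library. Without it Nfkb1 with Nfkbiz came second (0.812, against 0.473 over all 12). The lowest pair was then Nfkb2 with Nfkbia (0.177, against 0.326). The protein-coding genes whose pattern was most like that of each, out of 12719, were found by the same measure. For Nfkb2 they were Ehbp1l1 (r = 0.933, and 0.866 within groups), Haus8 (0.923 and 0.723) and Relb (0.915 and 0.663). For Nfkbiz they were Lcn2 (0.956 and 0.885), the gene of the iron-binding protein lipocalin 2, Sema4c (0.930 and 0.811) and Irak3 (0.928 and 0.848). These lean on the second treated wild-type liver, which held 5730 CPM of Lcn2 against 14.2 and 196 CPM in the other two, and without it r was 0.901 for Lcn2 (0.597 within groups), 0.862 for Sema4c (0.392) and 0.830 for Irak3 (0.395). For Nfkbia they included 1810043G02Rik (0.914 and 0.888) and Ppap2c (0.859 and 0.763). For Nfkb1 they were Trafd1 (0.975 and 0.917), Ezh1 (0.966 and 0.917) and Armc8 (0.950 and 0.935), and for Rela they were Ruvbl2 (0.944 and 0.976), Prpf19 (0.895 and 0.893) and Cacna1g (0.881 and 0.907). These values describe 12 libraries that share groups, depth and composition, and they carry no p.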

How the data were processed

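RNA from whole liver, cleared of rRNA, was read from both ends. Trimming by the authors used fastp, alignment HISAT2 with the mm9 genome, and gene counting StringTie. The annotation used for counting is not given in the sources used here. The deposited values are estimated counts, whole numbers that were not normalized, for 51609 genes, of which 23458 are at 0 in all 12 libraries. StringTie derives such counts from coverage, so they approximate read counts. No column of per-sample values was left unused. Groups came from the sample titles. GENCODE vM1 (mm9) gave names, positions and exon lengths and named 28677 rows.

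Counts were filtered with filterByExpr, normalized by TMM (factors 0.758 to 1.13) and fitted in R 4.3.3 with edgeR 4.0.16 (robust quasi-likelihood F test, 1 model of 4 groups, Benjamini-Hochberg adjustment over 17652 genes, threshold 0.05, biological coefficient of variation 0.317). The intervals are 95% intervals from that fit. Single values were also tested by exact permutation of log2(CPM + 0.5). The alternatives were DESeq2 1.42.0, limma 3.58.1 (voom with quality weights), DESeq2 size factors, all genes with a count, genes with 10 or more counts in each library, a fit of only those groups that enter a comparison, replicate number added as a block, each library left out and pseudocounts of 0.1 and 2. The Xist level as a covariate (above or below 100 CPM) and the correlations without 1 library were added after the data were seen. The fit was also run on simulated data, whose outcome is not given here and lends no support to the values reported. No library duplicated another of its group.

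The 5 genes, the pathway lists and the markers were chosen with earlier results of these data known. Named were the 5 genes, the other subunits and IκB genes, in the other lists each gene past the threshold (up to 3 by size where a list had none or over 4), and the 3 genes most like each of the 5, of which 1 is not reported here. Map3k14, Ripk1, Rnf31 and Commd1 had no matched row, and Lta, Tnfsf11, Ccl20 and Csf2 were not tested. The sources call the replicates biological.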

Additional observations from a re-analysis of the deposited data

Results flagged for a closer look

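The difference between the DSS responses of Tnfrsf1b, the second TNF receptor, passed the test of the interaction, at -1.16 on the log2 scale (SE 0.21, edgeR adjusted p = 0.0431). The call was lost without any single untreated liver of either genotype (edgeR adjusted p = 0.0535 to 0.123) and without most of the treated ones. Sex cannot be told apart from genotype or DSS in this difference, as the sex-linked transcripts show. The log2 fold change after DSS was 0.87 in wild-type mice and -0.29 in RelaΔhepStat3Δhep mice, whose untreated livers held 37.0 to 50.3 CPM against 22.8 to 28.0 CPM in untreated wild-type livers, a difference that did not pass the test (0.75 on the log2 scale, edgeR adjusted p = 0.0954). The adjusted p of this interaction ran from 7.54e-05 to 0.627 over 19 alternatives and was under 0.05 in 8 of them, and with the Xist level as a covariate, which 1 library alone separates from the groups, the value was -0.90 (adjusted p = 0.627).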

How the results depend on the processing

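Of 495 alternative values of the 25 log2 fold changes of the 5 genes, 464 kept their direction and their side of the threshold, 19 changed sign, 10 passed the threshold where the value reported did not, and 2 lost it. Only Nfkb2 after DSS in RelaΔhepStat3Δhep mice passed in the fit reported, and the 2 losses were of this call. The tally is thus mostly of values that did not pass at the outset. It also holds fits without a library outside the groups compared, and it does not measure stability. Of the 19 sign changes, all were of values that did not pass the test. In wild-type mice 1 gene was called after DSS by the replicate block (Nfkbia, 0.75, adjusted p = 0.0495), 1 by DESeq2 (Nfkbiz, 1.39, adjusted p = 0.0106), and 0 to 1 with a library left out, with Rela from -0.22 to 0.068 and Nfkbiz from 0.67 to 1.70. In RelaΔhepStat3Δhep mice 2 genes were called with only the groups compared (Nfkbiz, 1.09), 3 by DESeq2 (Nfkb1, 0.47, and Nfkbiz, 1.09, beside Nfkb2), 3 by limma-voom (Nfkb1, 0.52, and Nfkbiz, 1.27, beside Nfkb2), 0 with the Xist level as a covariate (Nfkb2, 1.19) and 0 to 3 with a library left out. Of these, 3 was the count without replicate 2 of DSS-treated wild-type livers, and 0 that without replicate 2 of untreated RelaΔhepStat3Δhep livers. The ranges with a library left out were -0.10 to 0.23 for Rela, 0.41 to 0.55 for Nfkb1, 0.85 to 1.36 for Nfkb2, -0.30 to 0.23 for Nfkbia and 0.94 to 1.32 for Nfkbiz. Between genotypes in untreated livers they were -0.12 to 0.085 for Rela, -0.094 to 0.083 for Nfkb1 and -0.15 to 0.060 for Nfkb2, and Nfkb1 was -0.093 with the Xist covariate and -0.051 by limma-voom. After DSS they were -0.080 to 0.29 for Rela and -0.90 to 0.13 for Nfkbiz. For the difference between the DSS responses they were -0.046 to 0.32 for Rela and -0.58 to 0.43 for Nfkbiz, which limma-voom put at 0.34. The causes were not tested, except that the Xist covariate differs within a group only through replicate 3 of untreated wild-type livers, so that this 1 library alone separates it from DSS in RelaΔhepStat3Δhep mice and the loss of calls there says nothing about stability. The pathway count after DSS moved from 2 to between 0 (only the groups compared) and 16 (DESeq2) in wild-type mice. In RelaΔhepStat3Δhep mice it moved from 13 to between 0 (the Xist covariate) and 18 (limma-voom), and without replicate 2 of the untreated livers it was 1. Same-numbered libraries deviated from their group means with r of -0.07 to 0.21, over 0.1 in 5 of 18 pairs, so the samples share only a number, and the replicate block changed no other call of the 5 genes; of the pathway genes it ended the calls of Tbk1 (0.50, adjusted p = 0.0579) and Il1a (1.01, adjusted p = 0.0547). Of 20 exact p-values, 1 moved with the pseudocount.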
